A study of Mus musculus with 4 samples.

Results

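The BCL2 family is described here by 10 genes, chosen by symbol among the 32285 features of each count matrix: the survival genes Mcl1, Bcl2a1b, Bcl2 and Bcl2l1, the effector genes Bax and Bak1, and the BH3-only genes Bcl2l11, Bid, Bbc3 and Pmaip1. Each symbol matched 1 row. Their RNA was counted in single cells of mouse pancreatic ductal adenocarcinoma, which is the only tissue the labels name. The 4 groups had 1 droplet library each. Control animals received PBS, PH animals the vitamin D analogue paricalcitol with hydroxychloroquine, which blocks lysosomal breakdown in autophagy, and G animals the nucleoside analogue gemcitabine. The library titled GPH is read as gemcitabine, given at 60 mg/kg, with paricalcitol and hydroxychloroquine, from the letters the other labels define. Its own treatment label writes GnP-H, does not spell out the letters and stops after the first drug, so that reading is not settled. Every library pooled tumour pieces of 3 animals, and strain, sex, age, treatment time and the origin of the tumours are not given in the sources used here. With 1 library per group there was no test. Differences between groups cannot be told apart from differences between the pools of animals or between library preparations.

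BCL2 proteins decide at the mitochondrial outer membrane whether a cell enters apoptosis. BAX and BAK form pores in that membrane, the survival proteins hold them in check, and the BH3-only proteins bind the survival proteins or the effectors when a cell is stressed. MCL1 and A1 turn over fast as proteins, so myeloid and lymphoid cells depend on steady production of them. BCL-XL is the product of Bcl2l1.

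The libraries held 7918 to 18589 barcodes, of which 4411 to 13977 cells were kept, with median depths from 4610 UMIs in G to 20103 in GPH. In GPH 41.0% of barcodes had more than 20% mitochondrial UMIs, against 12.7% to 15.6% elsewhere. Any 2 libraries shared 17 to 79 cell barcodes. Tumour tissue cells fell into a vimentin-high class, with 8279, 10906, 2154 and 1592 cells in control, PH, G and GPH, and a keratin-high class, with 1, 16, 1311 and 1853 cells. The vimentin-high clusters did not meet the ductal marker rule, so they carry no cell type name: 10 ductal markers summed to 1559 to 1966 counts per 1e6 UMIs (CPM) there, against 12277 and 16605 CPM in keratin-high cells of G and GPH. The 8 fibroblast markers summed to 447 to 1301 CPM in vimentin-high cells, highest in GPH. Macrophage-like, T cell-like, NK cell-like and neutrophil-like clusters held their own markers. Neutrophil-like cells numbered 30, 22, 834 and 17, and GPH had only 20 macrophage-like, 50 T cell-like and 11 NK cell-like cells. A level is given where a library had at least 20 cells of a class, and a comparison where both libraries had at least 100. The libraries also stood apart in other ways. The summed Y-linked genes were at 0.0735, 0.469, 8.70 and 12.7 CPM in vimentin-high cells of control, PH, G and GPH. They were at 32.2 and 37.4 CPM in keratin-high cells of G and GPH, and at 1.87 CPM or less in immune classes. Of 50 genes of the family and its pathway measured in vimentin-high cells, 6 of them members, 2 split the libraries into pairs by at least 1.5-fold, and neither was a member.

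All levels are UMIs of a gene, in CPM of the UMIs of the class in that library, so a level compares 1 gene between classes or libraries and not genes with each other. Intervals are exact 95% intervals and cover counting error only. A gene was measured in a comparison at a mean of 10 CPM and 20 UMIs in all, and it is called higher or lower at 1.5-fold.

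Mcl1 (ENSMUSG00000038612, chr3:95658788-95663176, mm10), which keeps BAK and BIM bound, was highest in neutrophil-like cells, where control had 2421 CPM (1961 to 2956), PH 983 (688 to 1361) and G 2179 (2091 to 2269). The PH value rests on 36 UMIs of 22 cells, and the control value on 96 UMIs of 30 cells. Macrophage-like cells had 640, 706, 643 and 839 CPM across the libraries (control, PH, G, GPH), which were below the neutrophil-like and above the keratin-high values of 176 and 252 CPM, although the interval of PH neutrophil-like cells reached into them. T cell-like cells had 231, 167, 145 and 175 CPM, NK cell-like cells 151, 152 and 139 CPM in control, PH and G, and vimentin-high cells 109, 103, 126 and 219 CPM. Keratin-high, T, NK and vimentin-high ranges overlapped their neighbours, so no order is read among them.

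Bcl2 (ENSMUSG00000057329, chr1:106538178-106714274), the founding survival gene of the family, had another order of classes. T cell-like cells had 156, 88.8, 72.9 and 279 CPM across the libraries (control, PH, G, GPH), and NK cell-like cells 120, 133 and 88.1 CPM. Vimentin-high cells stood far below both, at 14.3, 17.1, 19.1 and 26.7 CPM. Macrophage-like cells had 11.1, 14.3, 12.3 and 3.83 CPM, the last from 1 UMI, and keratin-high cells 5.33 and 7.02. Neutrophil-like cells of G had 15.9 CPM (9.28 to 25.5). Those of control and PH had 0 UMIs, which allows up to 75.7 and 81.9 CPM by 3 counts.

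Bcl2l1 (ENSMUSG00000007659, chr2:152780668-152831728) was highest by mean in neutrophil-like cells, with 126, 27.3 and 138 CPM in control, PH and G, of which the first 2 rest on 5 UMIs and 1 UMI. Macrophage-like cells followed at 60.3, 34.6, 22.7 and 53.6 CPM and T cell-like cells at 38.0, 46.3, 37.5 and 39.9. The T cell-like value of GPH rests on 8 UMIs. Keratin-high cells had 16.7 and 30.6 CPM, vimentin-high cells 13.9, 18.4, 13.8 and 18.9, and NK cell-like cells 3.88, 8.47 and 6.98. The NK range lay below all other classes.

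**Figure D1:**
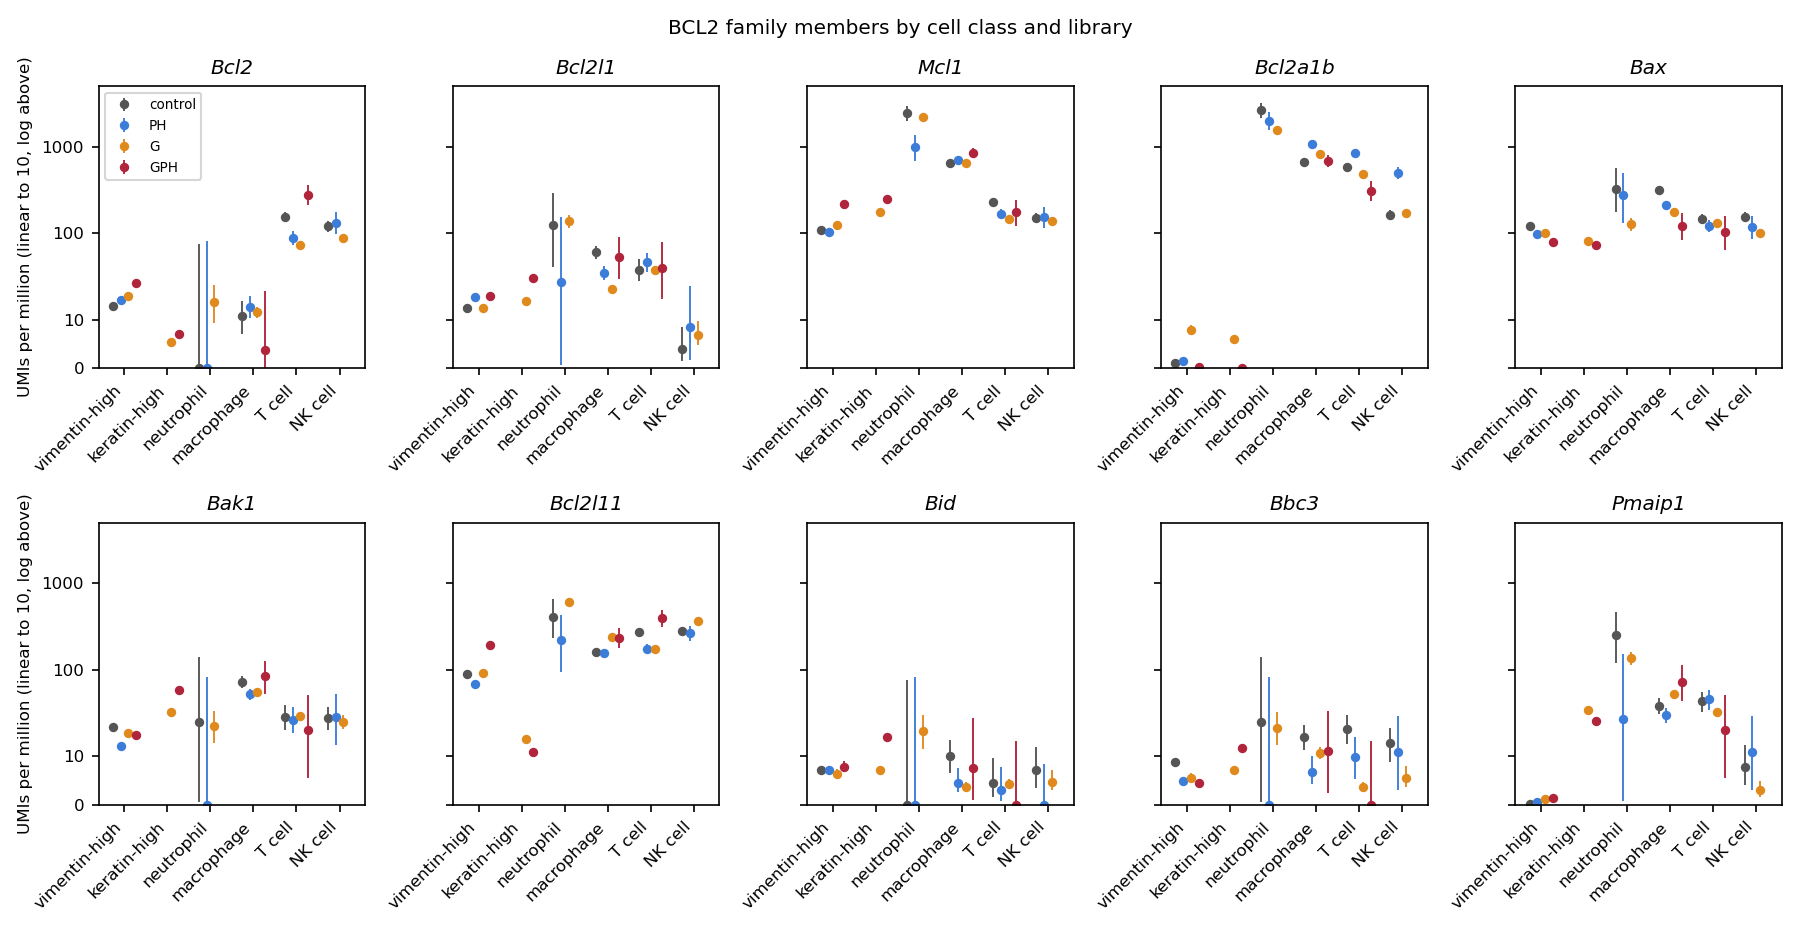
Levels of the 10 members (CPM, linear to 10 and logarithmic above) by cell class on the x axis, with 1 point per library and exact 95% intervals for counting error. Mcl1 and Bcl2a1b stand highest in neutrophil-like and macrophage-like cells, Bcl2 in T and NK cell-like cells, and Pmaip1 is near 0 in vimentin-high cells.

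Bcl2a1b (ENSMUSG00000089929, chr9:89199209-89207827) encodes A1, a survival protein of blood cells, and is 1 of several near-identical mouse copies. Its sister genes Bcl2a1a (chr9:88956900-88962419) and Bcl2a1d (chr9:88723285-88731914) share 97.9% and 98.8% of the 519 coding bases with it. The last 150 coding bases are shown, 5′ to 3′, because few letters there separate the copies and a short read can fit more than 1 of them. Capitals mark letters that differ from Bcl2a1b, 3 in Bcl2a1a and 2 in Bcl2a1d (GENCODE vM21 on GRCm38).
Bcl2a1b: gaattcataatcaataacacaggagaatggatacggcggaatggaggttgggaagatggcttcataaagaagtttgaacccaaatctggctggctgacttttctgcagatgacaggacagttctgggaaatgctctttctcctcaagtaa
Bcl2a1a: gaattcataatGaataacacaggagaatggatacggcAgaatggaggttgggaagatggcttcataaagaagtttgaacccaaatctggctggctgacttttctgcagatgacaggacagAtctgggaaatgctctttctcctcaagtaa
Bcl2a1d: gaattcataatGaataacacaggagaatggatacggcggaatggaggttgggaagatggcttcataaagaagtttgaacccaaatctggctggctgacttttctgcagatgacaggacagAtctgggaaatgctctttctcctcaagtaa

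The stretches before the copies' starts are alike too, and are shown because the 3 genes were counted in the same classes. They come from the RefSeq promoter windows of GRCm38.p6, trimmed to the bases before the earliest annotated start: chr9:89199023-89199208 (plus strand), chr9:88956670-88956899 (plus strand) and chr9:88731915-88732100 (minus strand). Capitals mark letters that differ from Bcl2a1b within the stretch they share.
Bcl2a1b upstream: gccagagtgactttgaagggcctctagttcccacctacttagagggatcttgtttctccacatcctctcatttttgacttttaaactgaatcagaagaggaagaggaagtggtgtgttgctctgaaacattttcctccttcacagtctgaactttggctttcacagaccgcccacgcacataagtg
Bcl2a1a upstream: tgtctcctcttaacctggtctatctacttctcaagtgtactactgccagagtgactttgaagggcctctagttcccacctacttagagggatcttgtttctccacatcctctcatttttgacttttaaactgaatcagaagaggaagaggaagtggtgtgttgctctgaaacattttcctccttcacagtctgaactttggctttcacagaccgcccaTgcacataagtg
Bcl2a1d upstream: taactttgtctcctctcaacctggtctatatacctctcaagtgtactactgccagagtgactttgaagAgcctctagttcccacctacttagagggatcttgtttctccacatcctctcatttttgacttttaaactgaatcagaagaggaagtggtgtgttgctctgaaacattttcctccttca

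Bcl2a1a matched Bcl2a1b at 185 of 186 shared bases. Bcl2a1d matched at 135 of 142 aligned columns, 6 of which are gaps. All 3 hold TGAATCA, a match on both strands to TGANTCA, a loose form of the AP-1 motif that allows any base in the middle. Of 32851 RefSeq promoter windows of 300 bases, 7.81% hold this loose form. The middle A matched through that free position, and the 3 stretches are near copies, so they are not separate matches. This is a match of letters, not a shown binding site.

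Bcl2a1b was far higher in immune than in tumour tissue classes. Neutrophil-like cells had 2623, 1965 and 1538 CPM in control, PH and G, macrophage-like cells 656, 1061, 819 and 685 CPM in the 4 libraries, T cell-like cells 587, 846, 487 and 309, and NK cell-like cells 164, 497 and 170. PH was the highest library in macrophage-like, T cell-like and NK cell-like cells. Vimentin-high cells had 1.10, 1.41, 7.93 and 0.142 CPM, and keratin-high cells 6.0 CPM in G and 0.0335 CPM, or 3 UMIs, in GPH. These tumour tissue levels were at most 0.516% of the highest class of the same library, a level that free RNA in droplets can give. They were highest in G, as were the leukocyte gene Ptprc (8.28 CPM in vimentin-high and 4.40 in keratin-high cells) and the neutrophil gene S100a8 (12.4 and 9.82 CPM); the part of such RNA in the values was not tested.

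The copies, whose transcripts are of like length, split the classes differently. Bcl2a1a took 17.5%, 11.9% and 14% of the UMIs of the 3 copies in neutrophil-like cells of control, PH and G, and 10.4% to 13% in macrophage-like cells of the 4 libraries. In T cell-like cells it took 0 of 1168 UMIs in control, which allows up to 0.257% by 3 counts, then 0.0573%, 0.273% and 1.00% in PH, G and GPH. In NK cell-like cells it took 0 of 378 UMIs in control, 0.697% in PH and 0.228% in G. Bcl2a1a stood at 94.5, 173, 178 and 126 CPM in macrophage-like cells and at 0, 0.758, 2.21 and 4.99 CPM in T cell-like cells. Bcl2a1d stood at 160, 305, 379 and 168 CPM in macrophage-like cells and at 282, 477, 321 and 185 CPM in T cell-like cells. The myeloid and lymphoid shares of Bcl2a1a did not overlap in any library. How reads that fit more than 1 copy were counted is not given in the sources used here. The split among the 3 copies is therefore uncertain, the size of the Bcl2a1a share included.

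**Figure D2:**
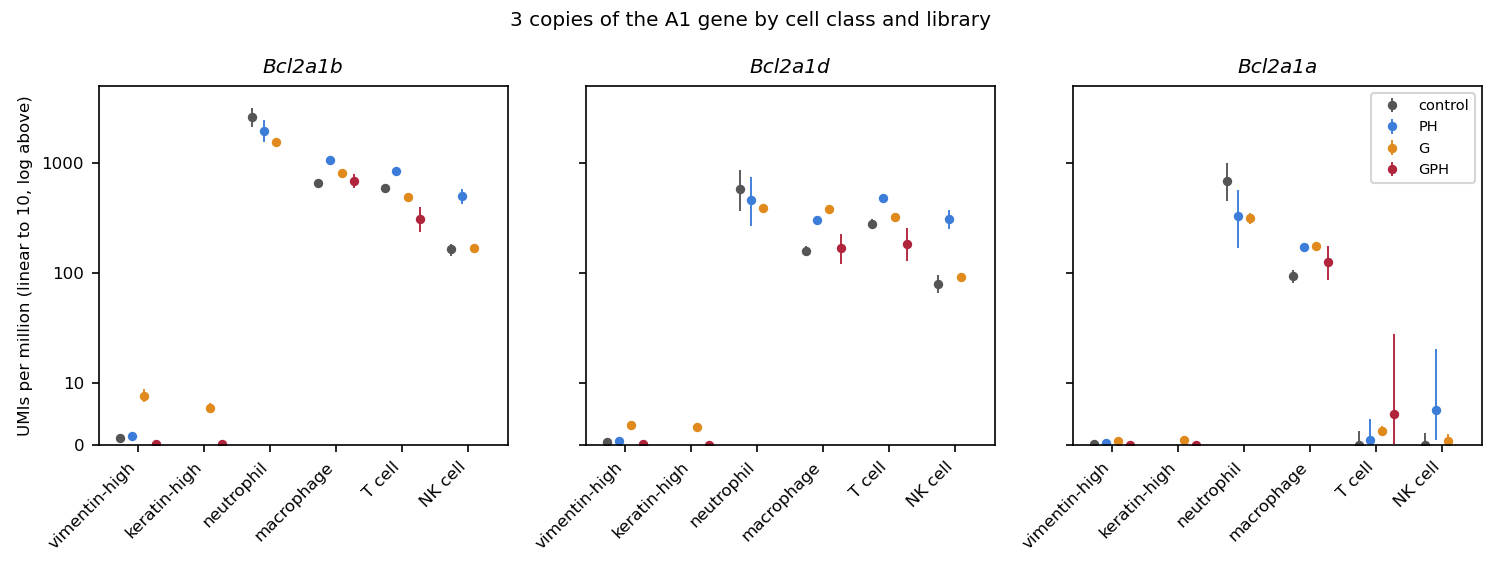
Levels of the 3 A1 copies (CPM, linear to 10 and logarithmic above) by cell class, with 1 point per library and exact 95% intervals. Bcl2a1b and Bcl2a1d are found in all 4 immune classes, while Bcl2a1a is found in neutrophil-like and macrophage-like cells and lies at 0 to 5.65 CPM in T and NK cell-like cells.

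Of the effectors, Bax (ENSMUSG00000003873, chr7:45461697-45466898) was present in every class at levels that overlapped from class to class. Macrophage-like cells had 318, 210, 177 and 123 CPM across the libraries (control, PH, G, GPH), vimentin-high cells 123, 97.6, 99.4 and 78.9, and keratin-high cells 81.7 and 74.2. T cell-like cells had 147, 122, 133 and 105 CPM, NK cell-like cells 154, 119 and 100, and neutrophil-like cells 328, 273 and 127. By value, control was the highest library in each of the 5 classes that had a control level, but not all intervals lay apart. Neutrophil-like values of control and PH rest on 13 and 10 UMIs, with intervals of 175 to 561 and 131 to 502 CPM. In T cell-like cells the control interval (127 to 169) overlapped those of PH (104 to 143) and G (127 to 138). Bak1 (ENSMUSG00000057789, chr17:27019810-27029009) was highest in macrophage-like cells, at 71.8, 52.2, 56.1 and 84.2 CPM, followed by keratin-high cells at 32.2 and 57.9. T and NK cell-like cells lay between 20 and 29.1 CPM, and vimentin-high cells between 13.2 and 22.1.

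Among the BH3-only genes, Bcl2l11 (ENSMUSG00000027381, chr2:128126038-128162547), which encodes BIM, the protein that binds all survival members, was high in neutrophil-like cells (403, 218 and 600 CPM), NK cell-like cells (280, 263 and 362), T cell-like cells (276, 174, 174 and 394) and macrophage-like cells (161, 158, 238 and 234). Vimentin-high cells had 88.2, 67.7, 90.7 and 195 CPM. Keratin-high cells had 16.1 and 11.3 CPM, below every other class and 2.68% and 2.87% of the highest class of their libraries. Pmaip1, which encodes NOXA, the partner of MCL1 and A1, showed a different pattern. Neutrophil-like cells had 252, 27.3 and 136 CPM, macrophage-like cells 38.6, 29.8, 53.2 and 72.8, T cell-like cells 43.2, 45.5, 32.3 and 20, keratin-high cells 34.5 and 25.5, and NK cell-like cells 7.76, 11.3 and 2.99. Vimentin-high cells had 0.0899, 0.461, 1.23 and 1.45 CPM, from 11 to 60 UMIs per library, at most 2.0% of the highest class of the library.

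Bid (ENSMUSG00000004446, chr6:120891930-120916853), which caspase-8 cleaves to link death receptors with mitochondria, was low throughout. It lay at 6.32 to 7.87 CPM in vimentin-high cells and at 7.26 and 16.7 CPM in keratin-high cells, with the top value in GPH. Immune classes had at most 19.7 CPM, and 4 of their values were 0 UMIs, which allows up to 75.7 and 81.9 CPM in neutrophil-like cells of control and PH, 15 CPM in T cell-like cells of GPH and 8.47 CPM in NK cell-like cells of PH. Bbc3 (ENSMUSG00000002083, chr7:16308393-16318205), which encodes PUMA, a target of p53, was also low. Vimentin-high cells had 8.77, 4.87, 5.55 and 4.54 CPM, macrophage-like cells 16.8, 6.68, 11 and 11.5, T cell-like cells 20.8, 9.87, 3.65 and 0 (which allows up to 15), and NK cell-like cells 14.2, 11.3 and 5.58. The control library was the highest in each of these 4 classes. Of 6182 genes with a mean of at least 5 CPM in vimentin-high, macrophage-like, T and NK cell-like cells, 5.13% had control above every treated library in all 4, and among the 7 members so measured these were Bax and Bbc3. This count was made after the values had been seen, and all its comparisons share the control library. The means include control, and those of Bbc3 were 5.93 CPM in vimentin-high and 8.59 CPM in T cell-like cells. Its treated levels there were 4.87, 5.55 and 4.54 CPM, and 9.87, 3.65 and 0 CPM. Bbc3 thus met the limit partly through its control level, which favours control as the highest library, so no result about Bbc3 is read from this count.

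The question of PH against control is how these genes stood after the drug pair without gemcitabine. In vimentin-high cells Bak1 was lower in PH by 1.67-fold (1.58 to 1.78), at 13.2 against 22.1 CPM. It was the single call among 6 measured members, or 1 of 6 where 15.3% of 6466 measured genes were called, 7.64% higher and 7.66% lower. Bcl2l1 was 1.32-fold higher (1.24 to 1.41), Bcl2l11 1.30-fold lower and Bax 1.26-fold lower, all short of 1.5-fold. Mcl1 was nearly level at 103 against 109 CPM. G against control asked the same of gemcitabine alone, and 0 of 6 measured members were called, where 11.5% of 6385 genes were, 5.18% higher and 6.3% lower. The ratios ran from 1.33-fold higher for Bcl2 (1.21 to 1.47) to 1.23-fold lower for Bax (1.19 to 1.29), and Bcl2l11 was at 90.7 against 88.2 CPM.

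GPH against control asked what the combination did, and here 4 of 6 measured members were called in vimentin-high cells, where 30.3% of 6751 genes were. Bcl2l11 was 2.21-fold higher (2.14 to 2.28), at 195 against 88.2 CPM. Mcl1 was 2.0-fold higher (1.94 to 2.07), at 219 against 109 CPM, and Bcl2 was 1.86-fold higher (1.71 to 2.03), at 26.7 against 14.3 CPM. Bax was 1.56-fold lower (1.49 to 1.63). A survival gene and a death gene that bind each other as proteins, Mcl1 and Bcl2l11, were thus both higher. Higher calls were 22.2% and lower calls 8.1% of all measured genes, whose median log2 ratio was 0.19. With the clusters of the class at equal weight, Bcl2l11 no longer reached 1.5-fold, at a log2 ratio of 0.46 in place of 1.14. The fibroblast markers also summed higher in GPH, at 1301 against 679 CPM, and their part in the result was not tested.

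Against G and PH the same genes of GPH led. Mcl1 was 1.73-fold higher than in G (1.66 to 1.81) and Bcl2l11 2.15-fold higher (2.05 to 2.25), which made 2 of 6 measured members where 27.5% of 6709 genes were called, 21.4% higher and 6.04% lower. Against PH, Bcl2l11 was 2.88-fold higher (2.78 to 2.98), Mcl1 2.12-fold (2.06 to 2.19) and Bcl2 1.56-fold (1.44 to 1.70), or 3 of 6 where 24.7% of 6787 genes were called, 18.4% higher and 6.26% lower. With clusters at equal weight, the log2 ratios against G were 0.23 for Mcl1 and 0.30 for Bcl2l11, both short of 1.5-fold, and against PH 0.57 for Mcl1 and 0.33 for Bcl2. Bcl2l11 against PH held at 0.74. Centred on the median gene, Mcl1 against G was at 0.55 and Bcl2 against PH at 0.51, also short of a call. Bcl2 against PH passed 1.5-fold in 7 of 11 alternatives. The comparisons share the GPH library, in which the median depth of vimentin-high cells was 14223 UMIs against 9274.5 to 11101 in the others. The part of depth in these ratios was not tested.

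**Figure D3:**
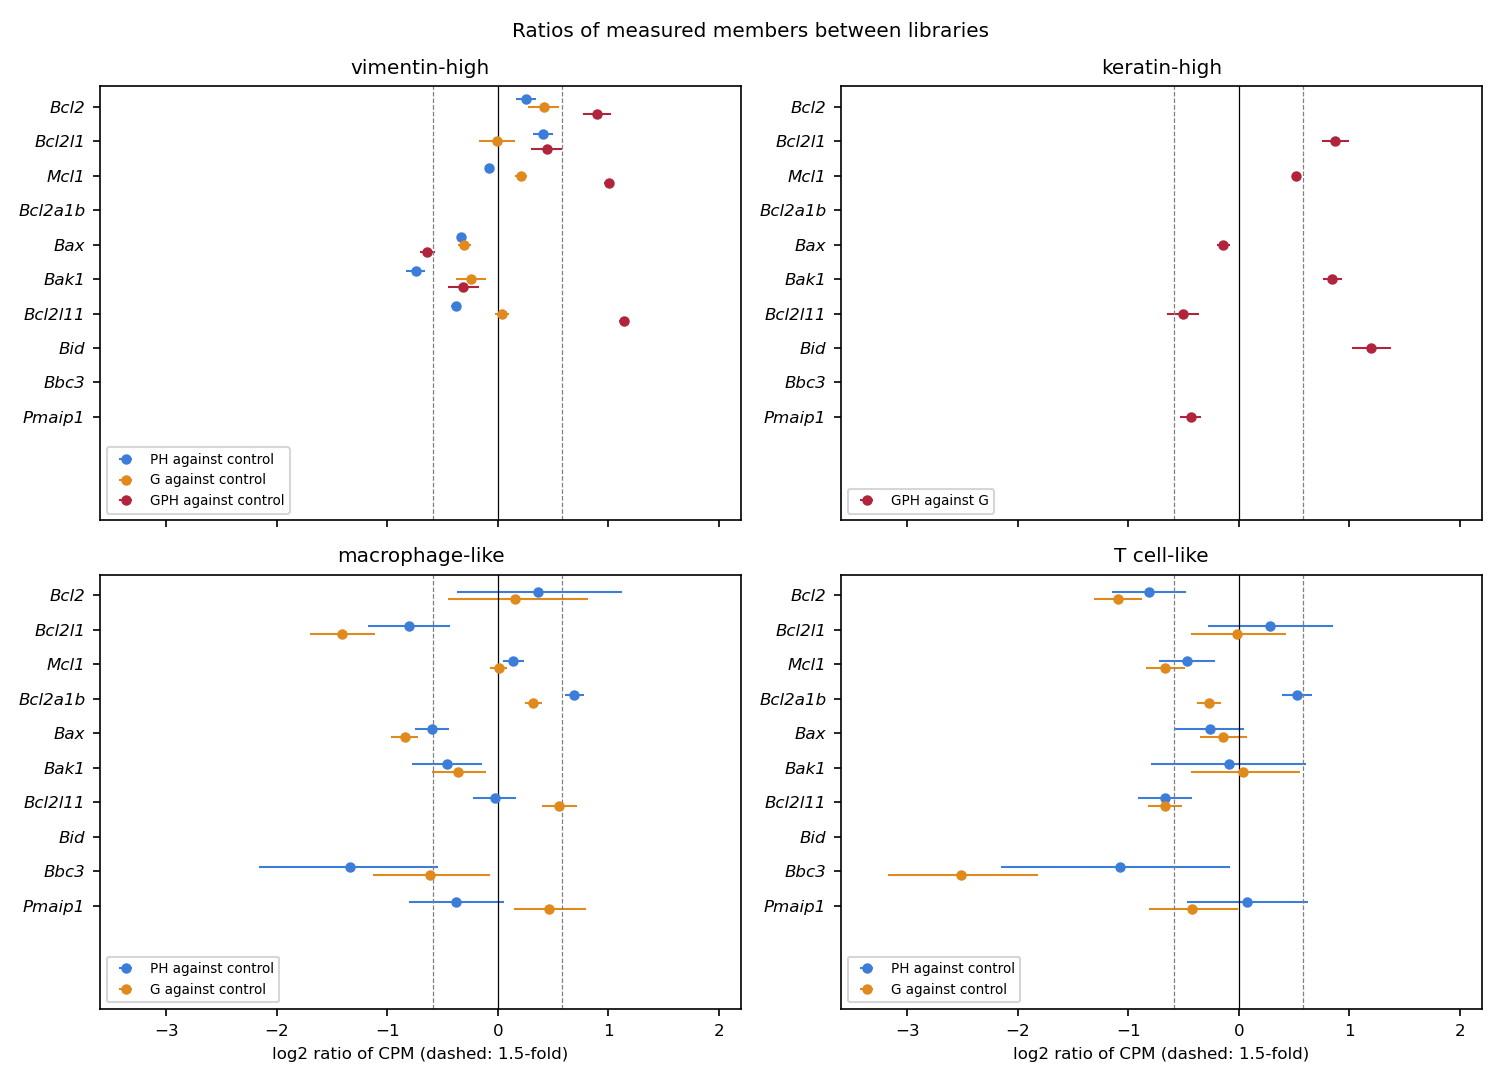
Log2 ratios of CPM between libraries on the x axis for the measured members of 4 classes, with exact 95% intervals for counting error and dashed lines at 1.5-fold. In vimentin-high cells Mcl1, Bcl2 and Bcl2l11 of GPH against control lie right of the lines and Bax left of them, while in macrophage-like and T cell-like cells most called members lie to the left.

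Clusters of a class are parts of the same libraries, so they are not replicates, and counts over them restate the same library difference. No such count was made over all genes, so no result about a member is read from the counts below. Within single clusters of the vimentin-high class Bax kept the same direction against control in each treated library. Bax was below control in 9 of 9 clusters in PH (ratios 0.691 to 0.865), in 8 of 8 in G (0.674 to 0.881) and in 7 of 7 in GPH (0.605 to 0.719), and 4 of the last passed 1.5-fold. Bak1 was below control in 9 of 9 clusters in PH, 6 of them past 1.5-fold. Bcl2l1, which the whole class placed short of the threshold, was above control in 9 of 9 clusters in PH, 4 of them past it. Bbc3 of PH was at 2.68 to 7.04 CPM over these clusters and at 5.81 to 12.7 CPM in control.

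Mcl1 and Bcl2l11 depended on the cluster. Cluster 1, led by Hes1, Hmox1 and Acta2, held 60.2% of the vimentin-high cells of GPH, 38.0% of control, 22.7% of G and 4.18% of PH. Mcl1 stood there at 142, 152, 232 and 254 CPM across the libraries (control, PH, G, GPH), and Bcl2l11 at 139, 96.5, 207 and 227 CPM. In this cluster G therefore lay next to GPH for both genes, unlike in the class as a whole. Cluster 4, led by immunoglobulin and chemokine genes, had Bcl2l11 at 81.3, 116, 126 and 220 CPM and Mcl1 at 110, 136, 160 and 222, with GPH on top. In cycling cluster 8, led by Top2a, Bcl2l11 was at 55.3, 33.9, 47.6 and 107 CPM, again highest in GPH. Cluster 2 had the reverse order for Bcl2l11, at 69.3, 27.1, 20.6 and 11.8 CPM. Over the 7 clusters that held enough cells of GPH and control, Bcl2l11 passed 1.5-fold higher in 4 and lower in 1. Bcl2 was past it higher in 5 and lower in 1, and Mcl1 higher in 3 and lower in none. These clusters, too, are parts of the same libraries and not replicates, and no share over all genes was counted.

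**Figure D4:**
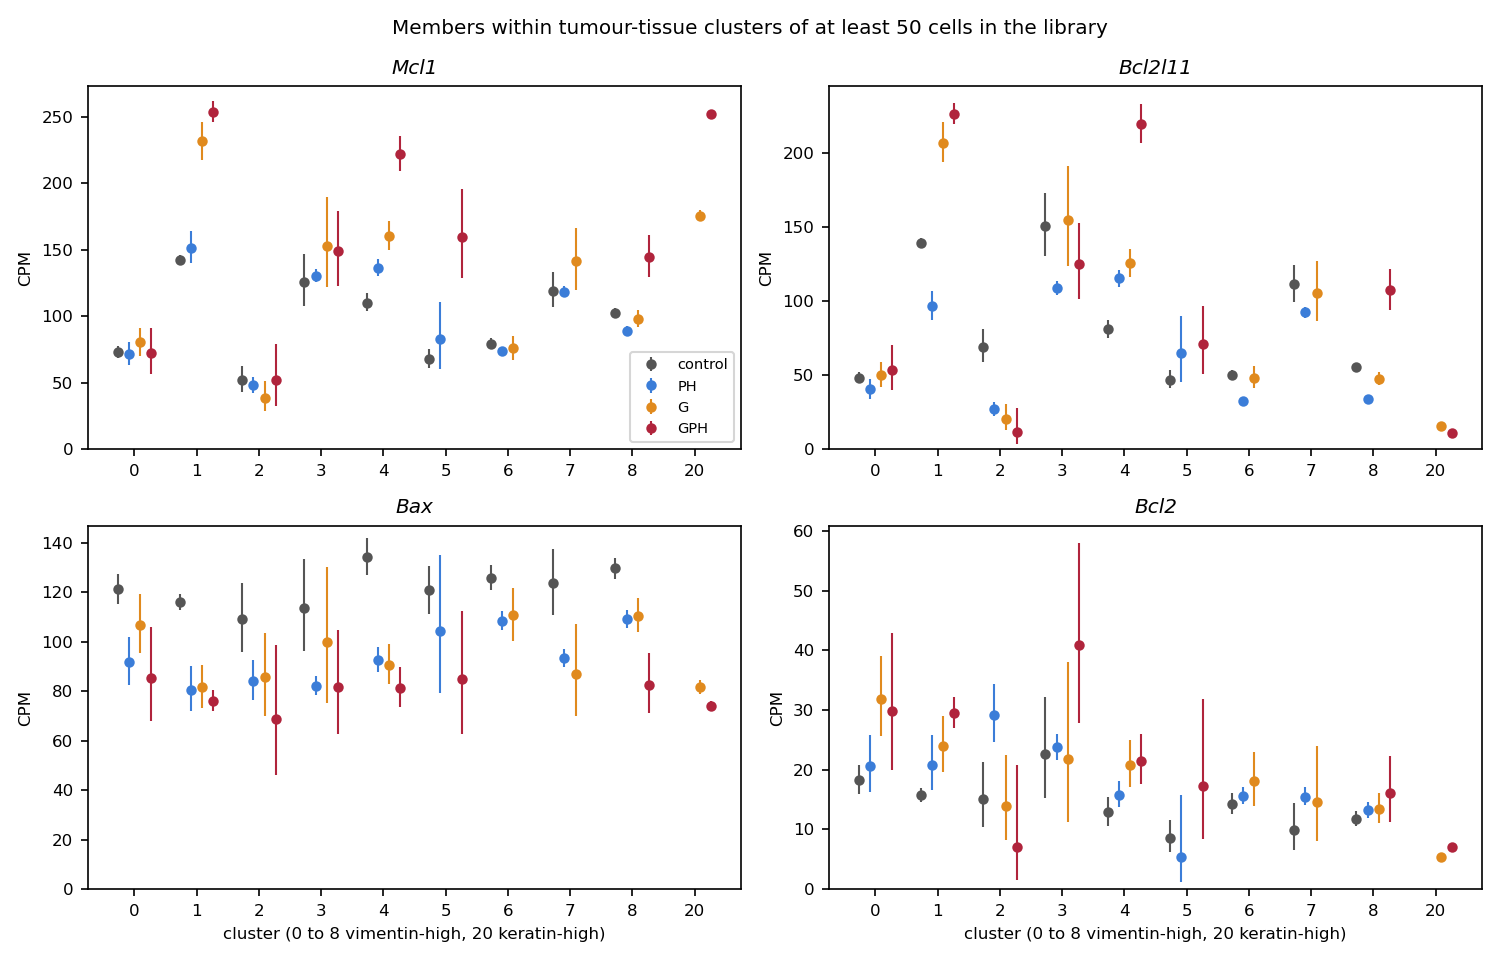
CPM of Mcl1, Bcl2l11, Bax and Bcl2 within each cluster of vimentin-high cells (0 to 8) and the keratin-high cluster 20, with 1 point per library of at least 50 cells and exact 95% intervals. Clusters 6 and 7 held 39 and 28 cells of GPH and cluster 5 held 40 of G, so these points are absent. Among the points shown, control is the highest library for Bax in clusters 0 to 8. Bcl2l11 of GPH ranges from 11.8 CPM in cluster 2 to 227 CPM in cluster 1 over the vimentin-high clusters with a GPH point. It is at 11.3 CPM in keratin-high cluster 20.

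Keratin-high cells could be compared between GPH and G alone, which asks what the combination changed beside gemcitabine. Bid was 2.30-fold higher in GPH (2.03 to 2.60), at 16.7 against 7.26 CPM. Bcl2l1 was 1.83-fold higher (1.69 to 1.99), at 30.6 against 16.7, and Bak1 1.80-fold higher (1.69 to 1.91), at 57.9 against 32.2. These were 3 of 7 measured members, where 21.6% of 6650 genes were called, 18.4% higher and 3.23% lower, and the median log2 ratio of all was 0.25. Bbc3, just short of the level for a call at a mean under 10 CPM, was at 12.6 against 7.26 CPM. Mcl1 was 1.43-fold higher (1.40 to 1.47), Bcl2l11 1.42-fold lower (1.29 to 1.57) and Pmaip1 1.35-fold lower (1.27 to 1.44). When the ratios were centred on the median gene, Bcl2l11 and Pmaip1 passed 1.5-fold lower, at log2 ratios of -0.75 and -0.68. Bax differed little, at 74.2 against 81.7 CPM.

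Set against vimentin-high cells of the same library, keratin-high cells had another mix of death genes. Bcl2l11 was 5.65-fold lower in G (5.19 to 6.15) and 17.2-fold lower in GPH (16.1 to 18.4). Pmaip1 was 28.1-fold higher in G (20.1 to 40.5) and 17.6-fold higher in GPH (12.9 to 24.6). Bcl2 was 3.59-fold and 3.8-fold lower in keratin-high cells of G and GPH. Bak1 was 1.72-fold and 3.24-fold higher. Bok, a family member related to BAX and BAK, was at 131 against 35.3 CPM in G and at 194 against 25.1 CPM in GPH. Bcl2l14, a family member of uncertain role, was at 8.03 and 14.4 CPM in keratin-high cells and at 0.140 and 0.0709 CPM in vimentin-high ones. Keratin-high cells were also deeper, with medians of 29665 and 45234 UMIs, and the part of depth in these folds was not tested. Their summed Y-linked genes stood higher too, at 32.2 against 8.70 CPM in G and at 37.4 against 12.7 CPM in GPH. Whether these classes differ in origin was not tested.

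Macrophage-like cells of PH had more A1 and less of 3 other members than control, 4 of 9 measured members where 26.3% of 6587 genes were called, 14.7% higher and 11.6% lower. Bcl2a1b was 1.62-fold higher (1.52 to 1.72), and the sister copies Bcl2a1d and Bcl2a1a were 1.91-fold and 1.83-fold higher. Bcl2l1 was 1.74-fold lower (1.35 to 2.26), Bax 1.51-fold lower (1.36 to 1.68) and Bbc3 2.52-fold lower (1.45 to 4.48), the last from 22 and 38 UMIs. Bax fell short of 1.5-fold in 5 of 11 alternatives, down to a log2 ratio of -0.39. In G, Bcl2l1 was 2.65-fold lower (2.16 to 3.24), Bax 1.79-fold lower (1.65 to 1.95) and Bbc3 1.53-fold lower (1.05 to 2.19), 3 of 9 where 36.6% of 6468 genes were called, 16.5% higher and 20.2% lower. Mcl1 was at 706 CPM in PH and 643 in G against 640 in control. With clusters at equal weight the log2 ratio of Bax in G was -0.49, and Bbc3 in G lay between -0.57 and -0.52 in the settings where it missed a call. Control and PH macrophages were mostly of cluster 11, at 73.2% and 81.6%, and those of G mostly of cluster 12, at 95.4%. Bcl2a1b was above control within both clusters, by 1.53-fold and 2.06-fold in PH and by 1.64-fold and 1.83-fold in G, although the whole class of G showed 1.25-fold. Bcl2l1 and Bax were below control within both clusters in both libraries, and Bax of G was there at ratios of 0.694 and 0.724, short of 1.5-fold. Mcl1 of G was also below control within both clusters, at ratios of 0.569 and 0.933, although the whole class was level. With clusters at equal weight its log2 ratio was -0.40.

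T cell-like cells had less Bcl2 in both treated libraries. Bcl2 was 1.75-fold lower in PH (1.39 to 2.22) and 2.14-fold lower in G (1.84 to 2.47) than in control. Bcl2l11 was 1.59-fold lower in both, with intervals of 1.34 to 1.88 and 1.42 to 1.77. Bbc3 was 2.11-fold lower in PH (1.06 to 4.44), from 13 and 28 UMIs, and 5.71-fold lower in G (3.53 to 9.0). Mcl1 was 1.59-fold lower in G (1.41 to 1.79) and 1.38-fold lower in PH, short of a call. These were 3 of 9 measured members in PH, where 22.2% of 6401 genes were called, 9.62% higher and 12.6% lower. In G they were 4 of 9, where 23.0% of 6383 genes were called, 9.65% higher and 13.3% lower. The make-up of the class differed: cluster 16, with Cd4 and Foxp3, held 23.5%, 16.1% and 40.5% of T cell-like cells in control, PH and G, and cluster 15, with Cd8a and Cd8b1, 69.1%, 76.6% and 45.4%. Bcl2 was lower within both, at 186, 119 and 123 CPM in cluster 15 and at 101, 19.7 and 55.9 CPM in cluster 16. Bcl2l11 of G was at 303 against 338 CPM in cluster 15 and at 99.5 against 169 CPM in cluster 16, and its log2 ratio with both at equal weight was -0.33, short of a call. In PH, Bcl2l11 was at -0.53 with a stricter marker gate and Bbc3 at -0.55 with clusters at equal weight. Mcl1 of G was at -0.53 with no doublets removed. Of 11 alternatives, Bcl2l11 passed 1.5-fold in 7 for G and 9 for PH, Mcl1 of G in 9 and Bbc3 of PH in 10. The 50 T cell-like cells of GPH had 279 CPM of Bcl2 (211 to 363) and 394 CPM of Bcl2l11 (312 to 491), the top values of the class for both, and were too few for a comparison.

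In NK cell-like cells of G against control, Bax was 1.54-fold lower (1.31 to 1.80), at 100 against 154 CPM, the only call among 6 measured members where 25.7% of 6046 genes were called, 12.8% higher and 12.9% lower. Bcl2l11 was 1.29-fold higher (1.17 to 1.44) and Bcl2 1.36-fold lower (1.14 to 1.62). Mcl1 was at 139 against 151 CPM and Bcl2a1b at 170 against 164. Bax passed 1.5-fold in 7 of 10 alternatives, and its log2 ratio was -0.53 with the mean of per-cell CPM, short of a call. The 97 NK cell-like cells of PH, just under the limit for a comparison, had 497 CPM of Bcl2a1b (426 to 576) against 164 CPM (145 to 186) in control.

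Over the 11 comparisons, Bax was called lower in 4 and higher in none of 11 in which it was measured, and Bbc3 lower in 4 of 4. Those 4 were PH and G against control in macrophage-like and T cell-like cells. Bbc3 of PH was at 6.68 and 9.87 CPM there, and that of G at 11 and 3.65. These levels lie under or near the mean of 10 CPM needed, so Bbc3 was measured largely through its higher control level. That limit favoured lower calls, so no direction is read from 4 of 4. Bbc3 was not measured in the other comparisons. Mcl1 was called higher in 3 and lower in 1 of 11, Bcl2l11 higher in 3 and lower in 2 of 11, and Bcl2 higher in 2 and lower in 2 of 10. Comparisons against the same control are not independent, so these are counts of calls. Per comparison, 3.23% to 20.2% of all measured genes were called lower and 5.18% to 22.2% higher. How many genes have a like tally over the 11 comparisons was not counted, so no result about a member is read from it.

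The rest of the death pathway was read from 6 lists of 74 genes. In vimentin-high cells of GPH against control, where 22.2% of all measured genes were called higher and 8.1% lower with a median log2 ratio of 0.19, none of 11 measured genes of the channel, apoptosome and caspase list was called (list median -0.30). Of 6 other death or uncertain family members none was higher and 3 were lower: the mitophagy receptor Bnip3 at 37.2 against 124 CPM, Bok at 25.1 against 37.9 and Bcl2l12 at 8.30 against 15.0 (list median log2 -0.58). Of 7 death receptor genes 3 were higher, against 22.2% of all genes (list median log2 0.57), the receptor Fas at 46.6 against 13.8 CPM, Tnfrsf1a at 55.1 against 32.1 and the kinase gene Ripk1 at 39.9 against 20.5. Of 18 measured regulators 8 were higher and none lower, against 22.2% and 8.1% of all genes (list median log2 0.55), among them the stress factors Atf4 (237 against 133 CPM) and Ddit3 (125 against 46.0), whose products can raise BH3-only genes, and Stat3 (152 against 56.2). Of the inhibitors of apoptosis Birc5, a gene of dividing cells, was lower at 35.4 against 90.7 CPM. In PH against control, Nfkb1 was higher at 88.2 against 40.0 CPM and Fas lower at 7.51 against 13.8. In keratin-high cells of GPH against G, Casp8, which cleaves BID, was higher at 59.8 against 37.6 CPM and Xiap at 38.4 against 20.2.

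In macrophage-like cells of PH, the NF-kappaB gene Nfkb1 was at 227 against 55.0 CPM in control, Cflar, which blocks caspase-8, at 287 against 78.9, and Birc3 at 50.1 against 20.4. In those of G, Nfkb1 was at 221 CPM, Cflar at 127 and Birc3 at 41.3. Of 6 measured inhibitors of apoptosis 4 were higher and none lower in PH, where 14.7% of all genes were higher and 11.6% lower (list median log2 0.75). In G 3 of 6 were higher and none lower, where 16.5% of all genes were higher and 20.2% lower (list median log2 0.51). Set against the same shares, Cflar was the only 1 of 8 measured death receptor genes that was higher in PH, and 2 were lower. These were Tnfrsf1a at 57.4 against 86.5 CPM and Tradd at 8.80 against 19.5 (list median log2 -0.22). In G 3 of 8 death receptor genes were higher and 2 lower (list median log2 -0.08). In T cell-like cells of G the cytochrome c gene Cycs was at 289 against 172 CPM and Parp1 at 29.7 against 11.9. In NK cell-like cells of G 8 of 19 measured regulators were higher and 1 was lower, where 12.8% of all genes were higher and 12.9% lower (list median log2 0.46). Fasl, the ligand of Fas, was at 80.8 against 40.7 CPM. Diablo, whose product frees caspases, was lower than control in PH and G in every class compared, but in vimentin-high cells it also split the libraries in pairs, at 24.1, 11.9, 11 and 18 CPM.

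Genes with the most similar level were sought over 15 class and library sums among 7626 genes, by Pearson r of log2(CPM + 10), as a description over points that share libraries and depth. Bcl2a1b was most like its own copy Bcl2a1d (r = 0.990), then Apbb1ip and Cd53. Bcl2 was most like Tcf7 (0.969), Ets1 and Pglyrp2, and Mcl1 like Slc31a2 (0.975), Sdcbp and Cdkn1a. Pmaip1 was most like Slco3a1 (0.956), Bax like Vps29 (0.944), Bcl2l11 like Ppp2r5a (0.941) and Bak1 like Rnpep (0.928). Bid (Pef1, 0.899), Bcl2l1 (Slfn1, 0.883) and Bbc3 (Prorsd1, 0.845) had the weakest partners.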

How the data were processed

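Droplet single-cell RNA counts were analysed for 4 libraries, 1 per group, so no replicate exists. The matrices the authors deposited hold unnormalized UMI counts of each gene in each barcode. Per the submitters' processing notes Cell Ranger 6.1 and mm10 were used, whereas the matrices' own headers name version 7.0.1, and whether intron reads were counted is not given in the sources used here. Totals were 158887422, 190110092, 144152432 and 143298547 UMIs in control, PH, G and GPH, and 0 columns belonged to no sample.

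Cells had at least 500 UMIs and 300 genes and at most 20% mitochondrial UMIs. The automatic threshold of Scrublet marked 0, 1, 0 and 7 barcodes and had not worked, so the top scores were removed at 0.8% per 1000 cells. Clustering (scanpy 1.11.5, igraph 0.11.9, scikit-learn 1.9.0, seed 0) used 2000 variable genes without the BCL2 family, 30 components, 15 neighbours and Leiden resolution 1.0. Immune clusters had Ptprc at 50 CPM. Keratin-high and vimentin-high clusters lay below that, with Xist under 50 CPM. Keratin-high ones had Krt19 at 1000 CPM. Vimentin-high ones had Krt19 under 1000 CPM, Vim at 2000 CPM and 1/3 of the library's median depth. Lists of markers named the immune classes, and clusters with mixed markers stayed unnamed. These rules, the 10 members, the lists and the named genes (all members, up to 3 genes of a list per direction by mean CPM, the 3 most alike genes) were chosen with earlier results of these data known.

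UMIs were summed per class and library, with exact Poisson intervals for levels, exact conditional binomial intervals for ratios and exact Clopper-Pearson intervals for shares (95%). A count of 0 was given a limit of 3 counts. Simulated counts held counting error alone, with no difference between pools of animals or library preparations. They therefore give no rate of false calls between these libraries. On them, 100% of 100 genes changed 2-fold passed 1.5-fold in vimentin-high cells of GPH against control, and 0% of 6551 unchanged genes did. For T cell-like cells of G these were 90% of 100 and 3.83% of 6183. For macrophage-like cells of PH they were 94% of 100 and 3.05% of 6387. The alternatives numbered 14. Promoter windows were found in RefSeq for 9 of 10 members, and protein sequences were not used. Ddit3 has 2 features, of which the first was counted. Tables were handled in Python 3.11.15 with pandas 2.3.3 and numpy 2.4.6, intervals came from scipy 1.17.1, matrices were held in anndata 0.12.19, and figures were drawn with matplotlib 3.10.9.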

Additional observations from a re-analysis of the deposited data

How the results depend on the processing

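No paired analysis was possible because each group had 1 library. Counts of called members kept within 1.5 times of the reported count in 129 of 152 recomputations over 14 alternatives, and no ratio of a called member changed sign. Among vimentin-high cells, the count for PH against control was 2 without mitochondrial and ribosomal genes, 2 at a mean of 5 CPM, 0 at a mean of 20 CPM and 0 at 2-fold. That for G against control was 1 with no doublets removed, 1 without mitochondrial and ribosomal genes and 1 at a mean of 5 CPM. For GPH against control it was 2 at 2-fold. For GPH against G it was 1 when centred on the median gene, 0 with clusters at equal weight and 1 at 2-fold, and for GPH against PH 1 with clusters at equal weight. In keratin-high cells it was 5 without mitochondrial and ribosomal genes, 5 when centred and 1 at 2-fold. In macrophage-like cells it was 1 at 2-fold for PH and 1 for G. In T cell-like cells it was 1 at 2-fold for PH, and for G 2 at 2-fold and 2 without mitochondrial and ribosomal genes. In NK cell-like cells it was 0 with the mean of per-cell CPM, 4 at a mean of 5 CPM and 0 at 2-fold. The cause of these shifts was not tested. Leaving aside the alternatives that move the mean level or the fold needed, calls past 1.5-fold under each of the other 11 that could be run (10 in keratin-high cells) were Bak1 of vimentin-high cells in PH, Mcl1, Bcl2 and Bax of those in GPH against control, Bcl2l11 of those in GPH against PH, Bcl2l1, Bak1 and Bid of keratin-high cells, Bcl2l1 of macrophage-like cells in PH and G, Bcl2a1b and Bbc3 of those in PH, Bcl2 of T cell-like cells in PH and G, and Bbc3 of those in G. Of these, Bak1 of vimentin-high cells, Bid of keratin-high cells and Bbc3 were no longer measured at a mean of 20 CPM. Depth limits Bid, Bbc3 and all neutrophil-like values of control and PH, which rest on 39656 and 36632 UMIs.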

Other observations

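Clusters that carry no class name held the family at levels of their own. In cluster 17, where T and NK markers were mixed and the median depth was 887 UMIs, Bcl2l11 stood at 724, 412, 486 and 1060 CPM in the 4 libraries (control, PH, G, GPH) and Bcl2 at 311, 238, 349 and 601 CPM, above every named class for Bcl2 in each library. In cluster 9, with a median of 3910 UMIs, Bcl2l11 was at 394, 280 and 398 CPM in control, PH and GPH, well above the vimentin-high class, and Bax at 77.1, 42.0 and 33.3 CPM, below it. Cluster 21, with 287 cells of GPH, had Krt19 at 2842 CPM and a median of 1297 UMIs. Its Xist, at 526 CPM, kept it out of the keratin-high class. Bcl2l11 was there at 21.5, Bcl2l1 at 51.7 and Mcl1 at 272 CPM. In cluster 22, with 1840 cells of PH, Mcl1 was at 59.2 CPM, Bcl2l11 at 21.4 and Bcl2a1b at 62.8.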
